A study of Mus musculus with 31 samples.

Results

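The 10 integrin alpha genes Itga1, Itga2, Itga3, Itga4, Itga5, Itga6, Itga7, Itga8, Itga11 and Itgav were taken by name from the mouse annotation (GENCODE M21, build GRCm38, also called mm10), out of 21938 protein-coding genes. All 10 were found. Their chromatin accessibility was read from a list of ATAC-seq peaks. It came from 1 library of the parental NIH-3T3 line, an established mouse embryonic fibroblast line grown in serum, which carries no transcription factor transgene and for which the labels list no doxycycline. ATAC-seq tags nucleosome-free DNA with a transposase, and positions under many tagged fragments were called as peaks by the study. The other 30 samples of the series, with transcription factor overexpression or the rtTA3G activator alone, were not analysed here. With 1 library there is no replicate error. The values below describe this library, and the intervals given cover counting error only.

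Integrins are the receptors by which cells hold on to the extracellular matrix. Each is a pair of an alpha and a beta subunit, and the alpha subunit largely sets which matrix protein is bound. Among the 10 genes, Itga1, Itga2 and Itga11 encode collagen receptors, which contact collagen through an inserted domain and pair with the β1 subunit. Itga3, Itga6 and Itga7 encode laminin receptors, which tie cells to basement membranes. Itga5, Itga8 and Itgav encode receptors for ligands with the tripeptide arginine-glycine-aspartate (RGD), of which fibronectin, nephronectin and vitronectin are the classic examples. Itga4 encodes the α4 subunit, which binds VCAM-1 and an alternatively spliced part of fibronectin and is best known from leukocytes.

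The genes lie on 6 chromosomes. The collagen receptor genes Itga1 (chr13:114953096-115101964, minus strand) and Itga2 (chr13:114833081-114932100, minus strand) are neighbours, and Itga11 (chr9:62677826-62783982, plus strand) lies apart. The laminin receptor genes are Itga3 (chr11:95044474-95076801, minus strand), Itga6 (chr2:71745616-71858416, plus strand) and Itga7 (chr10:128933818-128958282, plus strand). Of the RGD receptor genes, Itga5 (chr15:103344286-103366763, minus strand) is short, while Itga8 (chr2:12106632-12301922, minus strand) and Itgav (chr2:83724397-83806916, plus strand) are long and share chromosome 2 with Itga6 and Itga4 (chr2:79255426-79333123, plus strand).

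Each peak was placed in 1 of 3 categories for each gene. A promoter peak lay within 1 kb of the start (TSS) of any transcript of the gene, a gene-body peak had its summit elsewhere between the ends of the gene, and a flanking peak had its summit within 50 kb outside it. Fold enrichment is the number of fragments at the summit over the number expected locally, with 1 added to each. The whole list held 63456 peaks, with a median fold of 6.04 and a median of 29 fragments at the summit. The 10 genes accounted for 114 distinct peaks, of which 7 were promoter peaks, 28 were gene-body peaks and 81 were flanking peaks. Because Itga1 and Itga2 are neighbours, 4 peaks were counted at both, 2 of them as gene-body peaks of Itga1 and flanking peaks of Itga2. The median fold of the 114 peaks was 5.67, and their median was 35 fragments. A fold of at least 10 was reached by 22 of them (19.3%, exact 95% binomial interval 12.5 to 27.7%), against 20.1% of all peaks.

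As a check of the cell type, all 10 fibroblast markers (Col1a1, Col1a2, Col3a1, Pdgfra, Pdgfrb, Thy1, Twist1, Prrx1, Fn1 and Vim) had a promoter peak. So did 3 of 8 epithelial, 3 of 6 endothelial, 1 of 6 blood, 1 of 5 muscle and 1 of 5 neuronal markers. Among all protein-coding genes the share was 53.7%.

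Of the 10 integrin alpha genes, 7 had a promoter peak, against 53.7% of all protein-coding genes. These were all 3 RGD receptor genes, all 3 laminin receptor genes and 1 of 3 collagen receptor genes. Itga2, Itga11 and Itga4 had none. For 5 of the 7, namely Itga1, Itga5, Itga6, Itga8 and Itgav, the peak covered an annotated start. Itga3 had a weak peak inside the gene near its start, and Itga7 had a peak only near an internal, noncoding start.

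The promoters of these genes differed in CpG content, and the bases before the start are printed for 7 genes to show this. The first group is CpG-rich with a promoter peak, and the second is not CpG-rich and has a peak at its start. The third (Itga11 and Itga4, added after their values were seen) has no promoter peak. Itga2 also has none and is not printed. Its stretch of the same length held 8 CpGs, as many as that of Itga5. Each sequence is the 150 bases before the most upstream start near the main one, 5′ to 3′ on the strand of the gene, from the RefSeq copy of GRCm38.p6, with CpG dinucleotides in capitals.
Itga3 (chr11:95076802-95076951, minus strand): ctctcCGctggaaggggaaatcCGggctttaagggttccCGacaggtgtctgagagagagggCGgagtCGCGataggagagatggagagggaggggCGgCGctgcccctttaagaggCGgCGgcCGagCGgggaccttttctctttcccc
Itga8 (chr2:12301923-12302072, minus strand): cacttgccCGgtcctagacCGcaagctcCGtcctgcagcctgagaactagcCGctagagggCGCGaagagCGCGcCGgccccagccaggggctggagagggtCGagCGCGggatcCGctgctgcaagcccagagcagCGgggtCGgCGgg
Itgav (chr2:83724247-83724396, plus strand): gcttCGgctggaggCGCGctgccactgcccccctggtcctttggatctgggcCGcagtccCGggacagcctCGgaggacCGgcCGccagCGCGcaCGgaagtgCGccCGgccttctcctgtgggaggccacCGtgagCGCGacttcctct
Itga1 (chr13:115101965-115102114, minus strand): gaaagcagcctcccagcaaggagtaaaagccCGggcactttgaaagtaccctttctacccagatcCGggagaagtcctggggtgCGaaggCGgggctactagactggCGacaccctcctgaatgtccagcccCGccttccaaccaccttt
Itga5 (chr15:103366764-103366913, minus strand): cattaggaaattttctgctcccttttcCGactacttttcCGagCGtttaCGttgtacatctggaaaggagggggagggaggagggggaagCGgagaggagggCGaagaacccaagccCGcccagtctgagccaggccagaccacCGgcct
Itga11 (chr9:62677676-62677825, plus strand): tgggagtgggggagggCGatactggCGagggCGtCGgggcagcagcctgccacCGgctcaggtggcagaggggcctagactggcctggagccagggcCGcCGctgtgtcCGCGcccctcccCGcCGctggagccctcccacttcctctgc
Itga4 (chr2:79255276-79255425, plus strand): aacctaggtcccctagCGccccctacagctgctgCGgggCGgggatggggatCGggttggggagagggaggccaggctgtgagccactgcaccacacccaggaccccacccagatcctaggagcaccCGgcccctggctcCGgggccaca

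The stretches of Itga8 and Itgav held 16 CpGs each. Itga3 had 12, Itga11 had 11, Itga5 had 8, and Itga1 and Itga4 had 6 each. Over 250 bases before to 50 after the main TSS, the most upstream start of a protein-coding transcript, the ratio of observed to expected CpGs was 0.864 at Itga3, 0.859 at Itga6, 0.824 at Itga8 and 0.708 at Itgav. These 4 promoters met the definition of CpG-rich used here, a ratio of at least 0.6 with a GC content above 50%. The other 6 lay between 0.433 at Itga4 and 0.57 at Itga7, around the median of 0.537 over all protein-coding genes. Itga4, Itga11 and Itga7 were nonetheless GC-rich, at 68.3, 67.3 and 68.3% GC against a median of 55.3%.

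All 4 genes with CpG-rich promoters had a promoter peak, where the share over all such genes was 82.6%. Of the 6 genes without, 3 had one (Itga1, Itga5 and Itga7), against 32.8% of all such genes. The CpG ratio of Itga7 was measured at its main TSS, while its peak lay 16716 bp away near an internal start, so that at the measured starts 2 of 6 had a peak. Itga4 and Itga11, both without a promoter peak, had the lowest CpG ratios of the 10, at 0.433 and 0.449. Itga2, also without a peak, had a ratio of 0.519, above those of Itga1 (0.499) and Itga5 (0.505), which had peaks at their starts. The ratio therefore did not order the genes by presence of a peak. In a window of 500 bp to either side of the start, Itga5 also counted as CpG-rich, with a ratio of 0.638, which made 5 such genes.

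**Figure D1:**
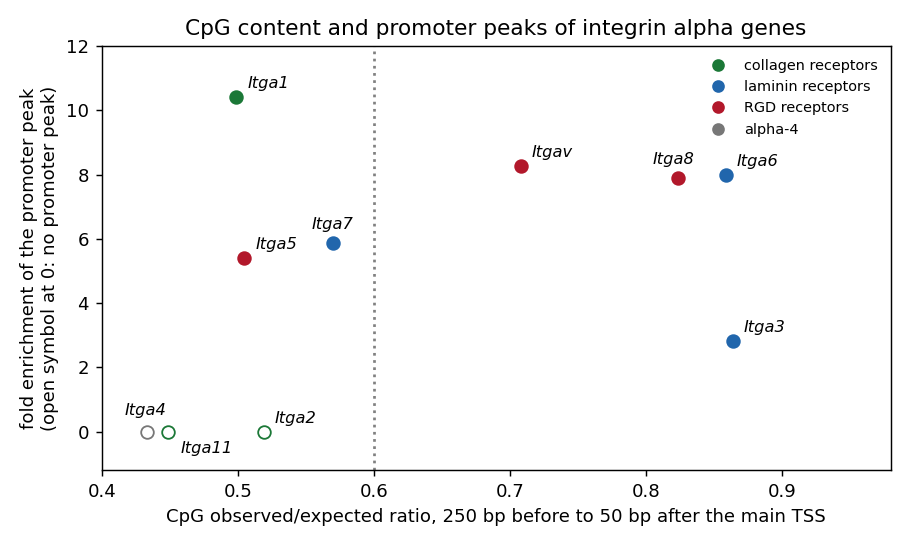
Fold enrichment of the promoter peak of each integrin alpha gene (vertical axis, linear scale, no unit) against the ratio of observed to expected CpGs around its main TSS (horizontal axis, no unit). Filled points are genes with a promoter peak and open points at 0 are genes without one, colours give the receptor class, and the dotted line marks the limit of 0.6: all 4 genes to its right had a peak, as did 3 of 6 to its left, of which the Itga7 peak lay 16716 bp from the TSS at which its ratio was measured.

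Short fixed sequences were searched on both strands of the same promoter windows. GGGCGG, the core bound by SP and KLF factors, was present in 7 of 10 (Itga2, Itga3, Itga4, Itga5, Itga6, Itga7 and Itgav), against 43.8% of all promoters. CCGGAAG, a core of ETS factors, was present at Itga3 and Itga6 (11.0% of all promoters), and CCAAT at Itga3 and Itga4 (39.0%). The TEAD sequence GGAATG was present at Itga7 alone among the 10 (13.3%). None of the 10 held TGACTCA, the sequence bound by AP-1 (reading TGAGTCA on the opposite strand), which 4.47% of all promoters held. TATAAA, TGACGTCA, the RUNX sequence AACCACA and the CArG box were likewise in none, against 12.6, 2.46, 4.99 and 1.45% of all promoters. A match describes the letters only. SP and KLF sequence was thus found at genes with and without a promoter peak, and the open Itga1 and Itga8 promoters held none of these sequences in this window.

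Among the RGD receptor genes, Itgav, whose product pairs with several beta subunits and binds vitronectin, fibronectin and latent TGF-β, had the tallest promoter peak of the 10. It covered chr2:83723903-83725225 with 94 fragments at the summit (exact 95% Poisson interval 76.0 to 115), 31 bp upstream of the main TSS, at a fold of 8.27 and a −log10 q of 52.2. Its width of 1323 bp placed it at percentile 91.0 among coding genes with a promoter peak. Itga5, the α5 subunit of the classical fibronectin receptor, followed with 72 fragments (56.3 to 90.7) at chr15:103366297-103367131, with the summit 116 bp inside the 5′ UTR. Because 12.5 fragments were expected there, its fold was 5.41 (−log10 q 28.1). Itga8, the α8 subunit that binds nephronectin in the developing kidney, had 29 fragments (19.4 to 41.6) at chr2:12301696-12302273, a fold of 7.88 and a −log10 q of 17.5. That peak was also at the start of the antisense transcript E030013I19Rik, and the reads of the library cannot be assigned to either start.

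Of the laminin receptor genes, Itga6, which encodes the α6 subunit of hemidesmosomes and of stem cell niches, had a broad peak of 1007 bp at chr2:71786562-71787568. It had 52 fragments (38.8 to 68.2), a fold of 7.98 and a −log10 q of 29.3, with the summit 10 bp upstream of the main TSS. The most upstream annotated start of Itga6, of a noncoding transcript at position 71745616, lay 19509 bp from the nearest peak. Itga3, which encodes a receptor for the laminins of epithelial basement membranes, had 21 fragments (13.0 to 32.1) in a 205 bp peak at chr11:95076371-95076575. Its fold of 2.82 lay at percentile 0.348 of coding genes with a promoter peak, and its −log10 q was 3.37. The peak began 226 bp and had its summit 319 bp inside the gene, in the 5′ UTR, so that the start itself was not covered.

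Itga7, which encodes the laminin receptor of muscle, was counted through the peak at chr10:128950352-128950952. That peak had 37 fragments (26.1 to 51.0), a fold of 5.86 and a −log10 q of 16.3. It lay in an intron, 474 bp from the start of a retained-intron transcript at position 128951426 and 16716 bp from the main TSS. The main starts of Itga7 lay 1978 bp from the nearest peak, at chr10:128931348-128931840 (fold 5.19, 28 fragments). Of the muscle markers, 1 of 5 (Des) had a promoter peak in this library, beside 1 of 5 neuronal and 1 of 6 blood markers. A link to Itga7 was not tested.

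The 3 collagen receptor genes differed at their starts. Itga1, the α1 subunit that prefers basement membrane collagen, had 40 fragments (28.6 to 54.5) at chr13:115101485-115102219. Against an expectation of 2.93 fragments this gave a fold of 10.4, the highest of the 7 promoter peaks, with a −log10 q of 28.7 and the summit 16 bp upstream of the TSS. The readthrough transcript Gm49395 starts at the same place. Itga2, the α2 subunit of platelets and epithelia, had its nearest peak 1519 bp upstream of the start, at chr13:114933619-114933945 (fold 12.6, 47 fragments), just outside the limit of 1 kb. Itga11, the α11 subunit of fibroblasts that binds fibrillar collagen, had no peak within 31854 bp of a start. The fibrillar collagen genes Col1a1, Col1a2 and Col3a1 themselves had promoter peaks. For Itga4 the nearest peak was 27389 bp from the main TSS.

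**Figure D2:**
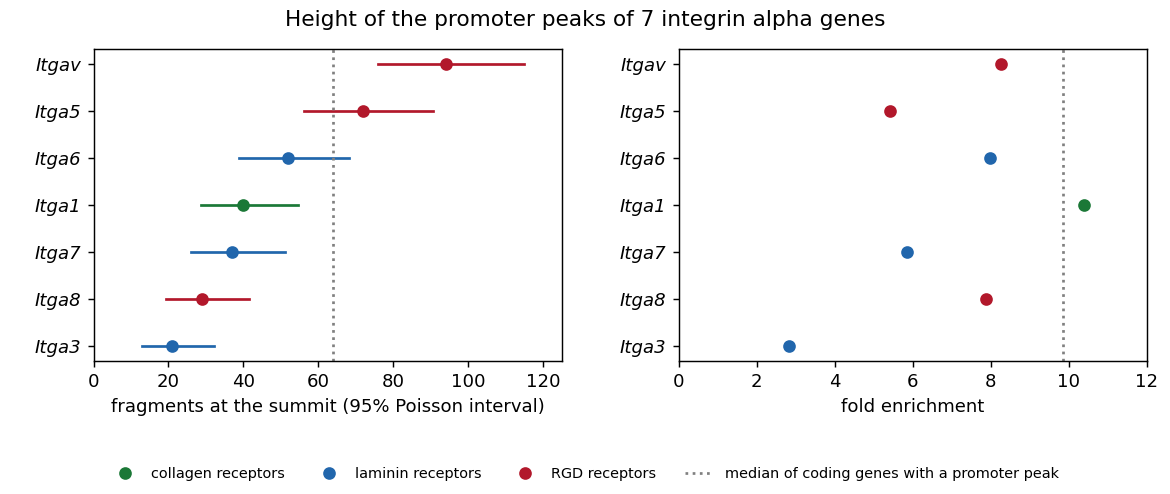
Height of the promoter peaks of 7 integrin alpha genes, as fragments at the summit with exact 95% Poisson intervals (left, number of fragments) and as fold enrichment (right, no unit), with colours for the receptor class and dotted lines at the medians of coding genes with a promoter peak (64 fragments and a fold of 9.86). Itgav and Itga5 were above the median by fragments and below it by fold, and Itga1 was the reverse.

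Ordered by fragments, the promoter peaks ran from Itgav through Itga5, Itga6, Itga1, Itga7 and Itga8 to Itga3. No neighbours in this order differed beyond their counting intervals. The interval of Itgav lay above those of Itga6, Itga1, Itga7, Itga8 and Itga3. That of Itga5 lay above those of Itga1, Itga7, Itga8 and Itga3, and that of Itga6 above that of Itga3. The highest was 4.48 times the lowest (95% interval 2.77 to 7.57). By fold the order changed, to Itga1, Itgav, Itga6, Itga8, Itga7, Itga5 and Itga3. Itga3 was the lowest on both scales, and Itga1 was the only gene above the median fold of 9.86. Itga5 moved from the second to the sixth place, with 12.5 fragments expected at its summit against 2.81 to 10.5 at the others. The median of the expected fragments over all peaks of a gene was 7.78 at Itga5, 6.67 at Itga7 and 6.29 at Itga3, the 3 genes with the most flanking peaks, and 2.81 to 5.38 at the others.

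All 10 genes had at least 1 gene-body peak, against 33.9% of all protein-coding genes. All 10 were also longer than the median coding gene of 17.4 kb, with 22.5 kb at Itga5 and 195 kb at Itga8 as the extremes, and gene length was not matched in this comparison. In all, 28 gene-body peaks lay in 902 kb, or 0.311 per 10 kb (exact 95% Poisson interval 0.206 to 0.449), where all coding gene bodies together had 0.219. The summit was in an intron for 27 of the 28. Of the 28, 5 lay within 1 kb of the start of another gene or noncoding transcript.

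Itgav and Itga8 had 7 gene-body peaks each, the most of the 10. At Itgav they numbered 0.848 per 10 kb (0.341 to 1.75). Its strongest was chr2:83744320-83744917, with a fold of 13.1 (−log10 q 76.2), 20128 bp into the gene at the start of the pseudogene Dnmt3l-ps1. The next, chr2:83758591-83759055, had a fold of 10.5 at the noncoding gene Gm13684, and the third, chr2:83771382-83771724, a fold of 10.2 with 38 fragments. The remaining 4 had folds of 4.91 to 8.14. Peaks were thus found along much of the gene, from 4.2 to 57.7 kb after the start. Itgav also had 8 flanking peaks. The highest by fold was at the start of its neighbour Fam171b (fold 16.1, 100 fragments). The next was chr2:83714604-83715038, 9495 bp upstream of the start (fold 13.3, 89 fragments). Both had a higher fold than any gene-body or promoter peak of Itgav.

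Itga8 is the longest of the 10 genes, and its 7 peaks gave 0.358 per 10 kb (0.144 to 0.739). The peak at chr2:12255593-12256268 had a fold of 18.6 with 96 fragments (−log10 q 89.1), 45929 bp into the gene. It was the only gene-body peak of the 10 genes with its summit in an exon, and its fold was higher than that of any promoter peak of the 10. Farther in lay a pair of neighbouring intronic peaks, chr2:12168563-12169021 with a fold of 11.0 and chr2:12169924-12170748 with a fold of 9.46, 133 and 131 kb from the start. Upstream of Itga8 lay chr2:12325361-12326040 (fold 14.8, 87 fragments), 23697 bp before the start, and chr2:12317283-12317697 (fold 12.1, 62 fragments), 15597 bp before it. Each of these 5 exceeded the fold of 7.88 of the promoter peak of Itga8.

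Itga5, the shortest gene, had 2 gene-body peaks, or 0.89 per 10 kb (0.108 to 3.21). The peak at chr15:103358238-103359128, in an intron 8041 bp from the start, had 128 fragments and a fold of 11.6 (−log10 q 88.5), higher on both scales than the promoter peak. The other was weaker, with a fold of 4.72. Around Itga5, 16 flanking peaks were counted, at percentile 99.5 of all coding genes, 4 of them within 5.3 kb upstream of the start. Its strongest flanking peaks were chr15:103304893-103305780 (fold 10.0, 113 fragments), the peak at the start of Zfp385a (fold 8.66) and chr15:103393583-103394026 (fold 8.19). Fibronectin itself, Fn1, had a promoter peak with a fold of 10.5 and 117 fragments.

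**Figure D3:**
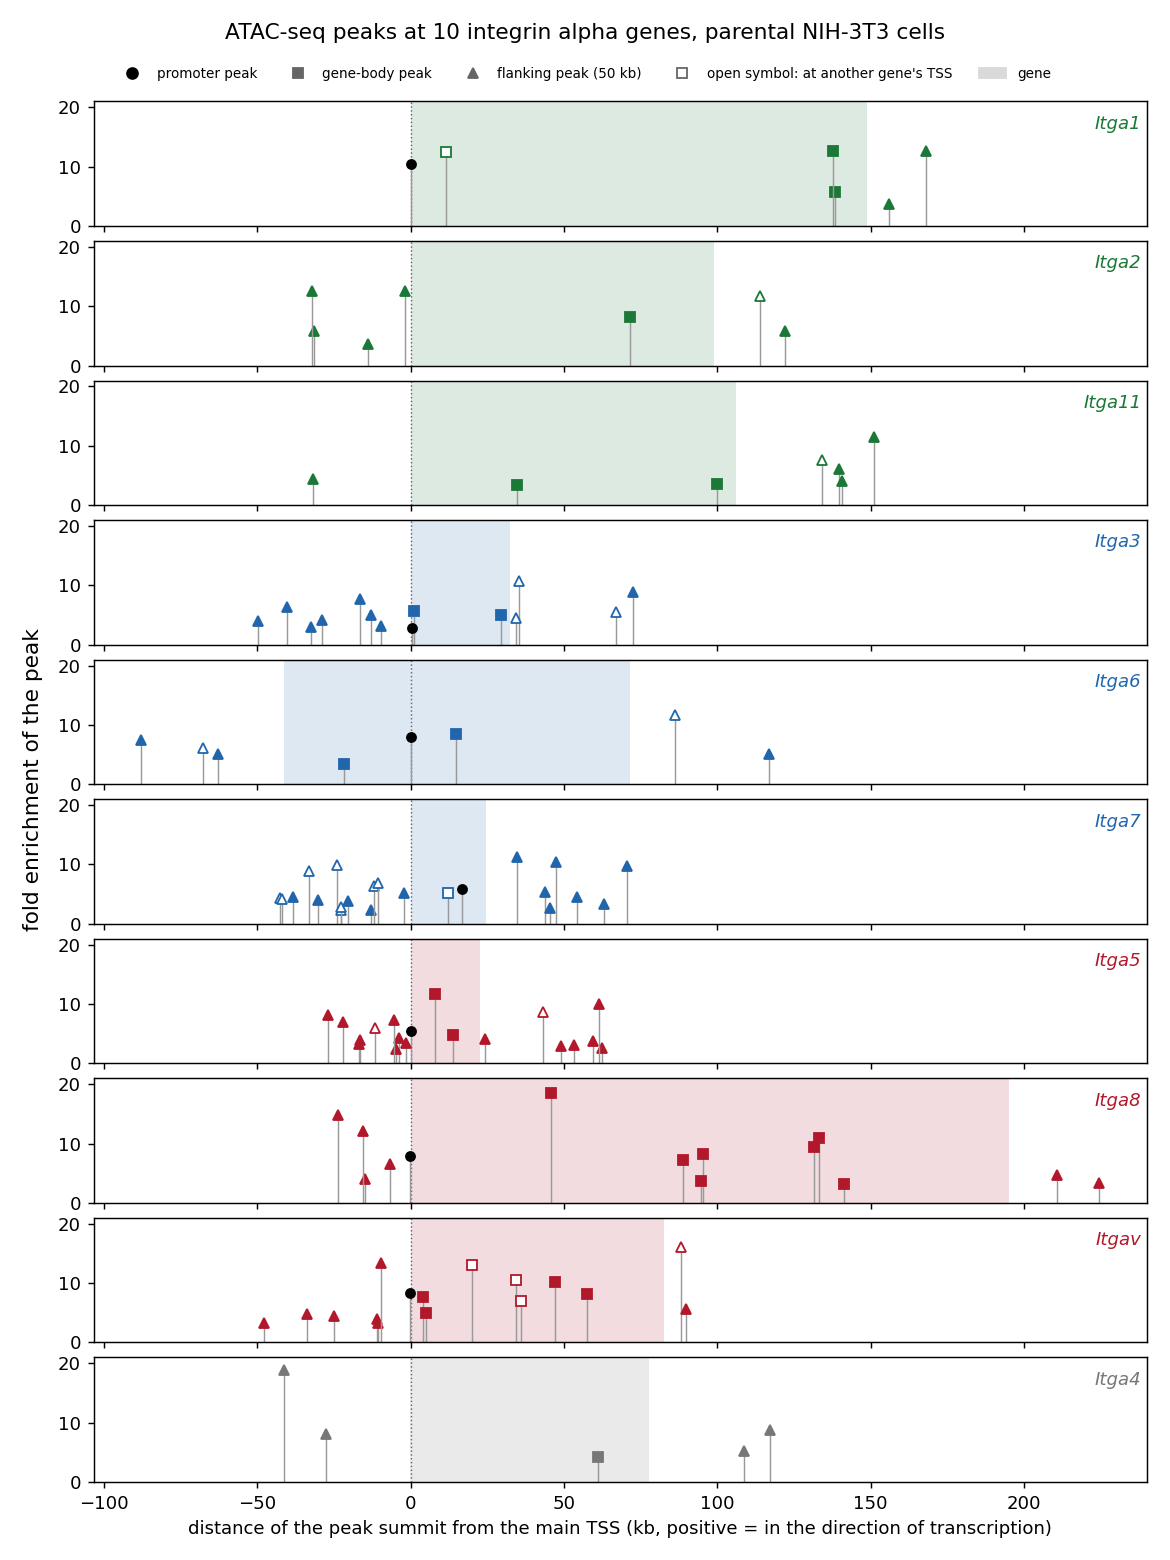
Position and fold enrichment of every peak at the 10 integrin alpha genes, with the distance of the summit from the main TSS in kb (horizontal axis, positive in the direction of transcription) and fold enrichment (vertical axis, linear scale, no unit). Black circles are promoter peaks, squares gene-body peaks and triangles flanking peaks, open squares and triangles lie at the start of another gene, and shading marks the gene, coloured by receptor class: the highest symbols are the flanking peak of Itga4 at a fold of 18.8 and the exonic peak of Itga8 at 18.6.

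Among the laminin receptor genes, Itga3 and Itga6 had 2 gene-body peaks each and Itga7 had 1, and flanking peaks numbered 11, 5 and 20, where the median coding gene had 4. Itga6 had 2 gene-body peaks, or 0.177 per 10 kb (0.0215 to 0.64), of which chr2:71801707-71802513, 14915 bp after the main TSS, had 38 fragments and a fold of 8.42 (−log10 q 23.2). The highest flanking peak of Itga6, with a fold of 11.6 and 78 fragments, was at the start of its neighbour Pdk1. Itga3 had 2 gene-body peaks, or 0.619 per 10 kb (0.0749 to 2.23). The peak at chr11:95075334-95075645, 1250 bp after the start, had 42 fragments and a fold of 5.67, both above the values of the Itga3 promoter peak. Its 11 flanking peaks lay mostly upstream (7 of 11). The highest was at the start of Pdk2 (fold 10.8, 91 fragments), next was a peak within Ppp1r9b (fold 8.81), and the third was chr11:95093141-95093461, 16551 bp upstream (fold 7.72, 55 fragments).

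Itga7 had 20 flanking peaks, the most of the 10 and at percentile 99.9 of all coding genes, of which 8 were at starts of its neighbours Gdf11, Cd63, Rdh5 and Bloc1s1. The tallest, at the shared start of Bloc1s1 and Rdh5, had 148 fragments. By fold the highest were chr10:128968078-128968819 (fold 11.2, 51 fragments) and chr10:128980675-128981632 (fold 10.4, 127 fragments), both downstream of the gene, followed by a peak within Cd63 (fold 9.85, 112 fragments). Within Itga7 the only gene-body peak (fold 5.1) was at the small nuclear RNA gene Gm25494. At this gene the strong peaks therefore lay outside it and not over its starts.

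Gene-body densities of the collagen receptor genes, 0.101 to 0.202 per 10 kb, lay below the 0.219 per 10 kb of all coding gene bodies together, and at percentiles 68.5 to 73.1 of single coding genes, whose median is 0. Itga1 had 3 in 149 kb, or 0.202 per 10 kb (0.0416 to 0.589). The most fragments, 68 at a fold of 12.6, lay at chr13:115089994-115090839, which is at the starts of Gm10734 and of Pelo, a ribosome rescue factor gene nested in Itga1. The intronic peak chr13:114964222-114964524, 137582 bp from the start, had 47 fragments at a fold of 12.6, and chr13:114963576-114963826 beside it had a fold of 5.76. Itga2 had 1 gene-body peak in 99 kb, or 0.101 per 10 kb (0.00256 to 0.563), chr13:114860362-114860507, with 30 fragments and a fold of 8.14. Its flanks held the peak upstream of its start given above, peaks within Itga1 and a peak at the start of Mocs2 (fold 11.7). Itga11 had 2 gene-body peaks, 0.188 per 10 kb (0.0228 to 0.681), with 12 and 13 fragments and folds of 3.41 and 3.5, close to the lowest count of 10 fragments in the list. The strongest peak near it was chr9:62828696-62829173 (fold 11.5, 53 fragments), 151 kb from its start on the far side of Fem1b.

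Itga4 had 1 gene-body peak, chr2:79316358-79316527 (fold 4.2, 15 fragments), or 0.129 per 10 kb (0.00326 to 0.717). Upstream, however, chr2:79213682-79214540 had the highest fold of all 114 peaks, 18.8, with 113 fragments and a −log10 q of 104. It lay 41365 bp before the main TSS and outside any other coding gene. The second upstream peak, at chr2:79227700-79228111, had a fold of 8.14. The remaining 2, on the downstream side, lay within Cerkl, with folds of 8.83 and 5.25. Itga4 thus combined a start without a peak with the strongest peak of the whole set in its flank. Positions alone do not tell which gene such a peak acts on.

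Summed over each class, RGD receptor genes had 16 gene-body peaks in 300 kb (0.533 per 10 kb, 0.305 to 0.865), laminin receptor genes 5 in 170 kb (0.295, 0.0957 to 0.688) and collagen receptor genes 6 in 354 kb (0.169, 0.0622 to 0.369). The density in RGD receptor genes was 3.14 times that in collagen receptor genes (95% interval 1.17 to 9.81). It was 1.81 times that in laminin receptor genes (0.633 to 6.31), and the density in laminin receptor genes was 1.74 times that in collagen receptor genes (0.42 to 6.84). These intervals treat peaks as independent counts and cover counting error only. Some peaks lay close together, such as the neighbouring pair in Itga8, so the intervals do not measure a difference between classes. Gene by gene, the listed RGD receptor genes ranged from 0.358 to 0.89 per 10 kb and the listed collagen receptor genes from 0.101 to 0.202. These ranges did not overlap, while the laminin receptor genes (0.177 to 0.619) overlapped both. The separation held for the listed genes only. Itga10, a collagen receptor gene not among the 10, had 1 gene-body peak, or 0.528 per 10 kb, within the RGD range. Itga2b, an RGD receptor gene not among the 10, had no gene-body peak, which is below the range of the listed collagen receptor genes. All intervals of the 10 single genes overlapped each other. With 3 genes in a class and 1 library, no test of the classes was made.

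The density of the RGD receptor genes was 0.504 per 10 kb without Itga5, 0.413 without Itgav and 0.857 without Itga8, and that of the collagen receptor genes stayed between 0.146 and 0.196 when 1 gene was left out. With peaks at other starts left out, Itgav had 0.485 per 10 kb, Itga1 had 0.134 and Itga7 had none, while Itga5, Itga8, Itga2 and Itga11 kept their values. The ranges of the listed RGD and collagen receptor genes then still did not overlap. Flanking peaks had another order, with 36 at laminin receptor genes, 30 at RGD receptor genes and 11 at collagen receptor genes, and ranges from gene to gene of 5 to 20, 6 to 16 and 2 to 6. A fold of at least 10 was reached by 11 of 49 distinct peaks at RGD receptor genes. The counts were 4 of 44 at laminin receptor genes and 6 of 16 at collagen receptor genes, against 20.1% of all peaks. Of the 6 strong peaks at collagen receptor genes, 3 lay between or within the neighbours Itga1 and Itga2 away from their starts, namely the peak upstream of Itga2, the intronic Itga1 peak and the Pelo peak.

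**Figure D4:**
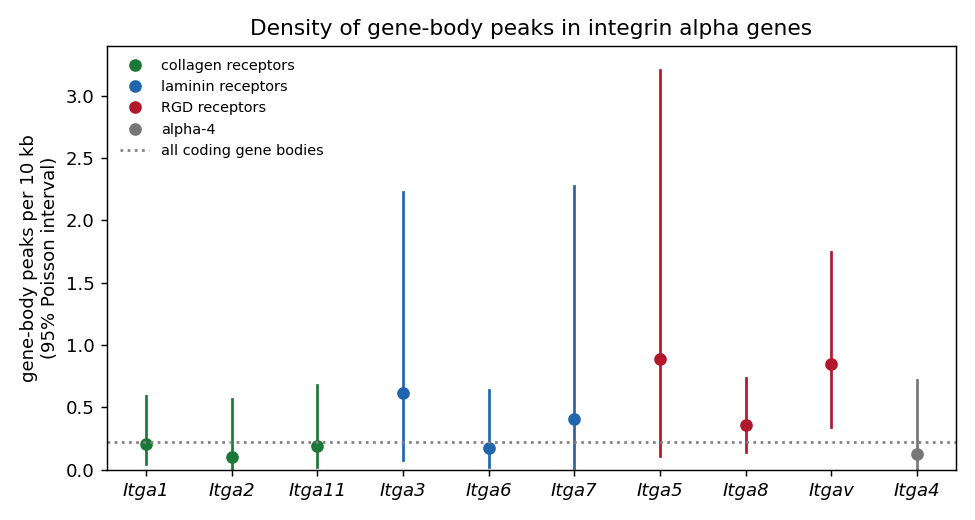
Gene-body peaks per 10 kb of each integrin alpha gene (vertical axis, linear scale), with exact 95% Poisson intervals for counting error as bars and colours for the receptor class. The dotted line is the density over all coding gene bodies, 0.219 per 10 kb: the 3 RGD receptor genes lay above it and the 3 collagen receptor genes below it, with intervals that cross it for all but Itgav.

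Sequences at the summits were examined for the AP-1 sequence TGACTCA on either strand. AP-1 is formed by the FOS and JUN factors that are active in growing fibroblasts. The windows printed run from 50 bases before to 50 bases after the summit, plus strand, from the RefSeq copy of GRCm38.p6, with the AP-1 sequence in capitals. They are the gene-body peaks with the highest fold that held it in Itga2, Itga6, Itga8 and Itgav, and then the 2 peaks with the highest fold of all 114, of which the exonic Itga8 window held none. The weak Itga11 gene-body peak with a fold of 3.41 and 12 fragments also held the sequence and is not printed.
Itga2 gene body (chr13:114860382-114860482): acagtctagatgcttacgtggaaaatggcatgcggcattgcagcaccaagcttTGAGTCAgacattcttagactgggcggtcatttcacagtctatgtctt
Itga6 gene body (chr2:71801805-71801905): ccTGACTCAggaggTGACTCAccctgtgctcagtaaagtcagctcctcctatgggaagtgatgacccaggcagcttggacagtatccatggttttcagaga
Itga8 gene body (chr2:12168742-12168842): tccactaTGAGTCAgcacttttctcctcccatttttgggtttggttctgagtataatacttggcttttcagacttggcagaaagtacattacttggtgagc
Itgav gene body (chr2:83758736-83758836): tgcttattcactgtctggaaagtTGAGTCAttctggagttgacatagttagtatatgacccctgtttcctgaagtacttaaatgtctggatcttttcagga
Itga4 upstream (chr2:79214085-79214185): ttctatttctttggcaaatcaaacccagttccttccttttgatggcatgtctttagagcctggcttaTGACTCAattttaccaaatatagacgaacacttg
Itga8 exon (chr2:12255943-12256043): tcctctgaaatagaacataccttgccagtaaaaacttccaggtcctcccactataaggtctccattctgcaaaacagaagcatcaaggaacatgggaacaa

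Of 84 distinct peaks at the 10 genes that were more than 1 kb from any start of any gene, 22 held the AP-1 sequence in the window (26.2%, exact 95% binomial interval 17.2 to 36.9%). Over all 47192 such peaks the share was 26.4%, so the integrin alpha loci were at the background. The share was 4 of 12 at collagen receptor genes, 8 of 27 at laminin receptor genes and 9 of 40 at RGD receptor genes, with wide intervals that overlapped (9.92 to 65.1%, 13.8 to 50.2% and 10.8 to 38.5%). The Itga6 window held the sequence 2 times. Peaks with it at the integrin alpha genes had a median fold of 6.26, and peaks without it 4.82. Over all peaks away from starts the medians were 6.31 and 5.3. The TEAD sequence was found in 6 of the 84 (7.14%, against 9.52% of all), and the RUNX sequence in 4 (4.76%, against 5.05%).

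The integrin beta genes, not all of which encode partners of these 10 subunits, were counted in the same way. Of 8 integrin beta genes, 7 had a promoter peak (87.5%, against 53.7% of all protein-coding genes), and 3 had a peak that covered a TSS. Itgb1, the partner of most of the 10 alpha subunits, had a fold of 12.0 with 57 fragments, above the fold of each alpha promoter. Itgb8, a partner of αv, had the highest fold of the list, 13.1, with 105 fragments. Itgb3 and Itgb5, also partners of αv, had weak promoter peaks, with folds of 3.3 and 3.9, and 10 and 7 gene-body peaks. Itgb6, a further partner of αv known from epithelia, had no promoter peak and 10 gene-body peaks. The remaining genes of the list, Itgb2, Itgb4 and Itgb7, had promoter peaks with folds of 7.85, 8.99 and 8.89 and with 42, 86 and 93 fragments.

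Of 8 other integrin alpha genes, 3 had a promoter peak (37.5%, against 53.7% of all), and 1 had a peak that covered a TSS. These were Itga2b, the platelet αIIb subunit (fold 6.09), Itga9 (6.83) and Itga10, a collagen receptor of cartilage (4.18). The leukocyte genes Itgad, Itgae, Itgal, Itgam and Itgax had none, and Itgal and Itgam are also among the blood markers above. Of 16 genes for proteins that activate integrins or link them to actin, 14 had a promoter peak (87.5%, against 53.7% of all), the exceptions being Fermt1 and Fermt3, the kindlins of epithelia and of blood cells. Vcl, encoding vinculin, had a fold of 12.7 with 130 fragments, and Ilk, encoding integrin-linked kinase, a fold of 11.6 with 104. Zyx, encoding zyxin, had 202 fragments. Ptk2, encoding focal adhesion kinase, had a promoter fold of 11.0 and 11 gene-body peaks. The median promoter fold was 10.1 among these 14 genes, with a range from 2.52 at Parvb to 12.7 at Vcl. Among the 7 beta genes it was 8.89, with a range from 3.3 to 13.1. Both ranges overlapped the folds of 2.82 to 10.4 at the integrin alpha genes.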

How the data were processed

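Alignment to mm10, removal of duplicates and peak calling on whole fragments were done by the authors. The submitters' processing notes name STAR 2.5.3a, Picard and MACS2 2.1.1.20160309. Blacklist filtering is described for ChIP-seq and referred to for ATAC-seq, and no shift for the Tn5 cut is described. For each peak the authors deposited the summit position, a fold enrichment (a ratio), the p and q on the −log10 scale and a score derived from the latter. The depth of the library is not part of the list, so fragments at each summit were solved from the fold and the −log10 p. They were within 0.02 of a whole number for 99.997% of peaks, and on simulated data 100% of 5000 pileups and of 1200 peak categories were recovered.

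Peaks were compared with GENCODE M21 and the RefSeq sequence of GRCm38.p6, coordinates counted from 1. RefSeq's table of promoters matched 8 of the 10 genes, so all sequences were read from the genome. Intervals are exact Poisson or binomial (95%), and the interval of a ratio of counts is conditional on their sum. PCR copies are not independent molecules, and such intervals cover counting error only. For each gene the promoter peak and up to 3 gene-body and flanking peaks with the highest folds are named, with genes at their positions. For some genes, such as Itga6, fewer than 3 of the flanking peaks are named. The members and lists were chosen with earlier results of these data known. No test between samples was possible with 1 library. The alternatives were stricter q and fold limits, other distances, transcript sets, windows and flanks. Calculations ran in Python 3.11.15 with pandas 2.3.3, NumPy 2.4.6 and SciPy 1.17.1, figures were drawn with matplotlib 3.10.9, and sequences were read with samtools 1.23.1.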

Additional observations from a re-analysis of the deposited data

How the results depend on the processing

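The count of 7 genes with a promoter peak stayed between 5 and 8 under every alternative tried. Itga3 lost its peak at a q of 1e-05, at a fold of at least 5 and where the peak had to cover the TSS. Itga7 lost its peak under the last of these, with protein-coding transcripts only and with only the 5′ end of the gene, which also removed Itga6. Itga1 and Itga8 lost theirs without peaks at starts of other genes, and Itga2 gained 1 within 2 kb. Flanking peaks, 81 within 50 kb, were 44 within 25 kb, 129 within 100 kb and 44 at a fold of at least 5. Gene-body density of laminin receptor genes went from 0.295 to 0.873 per 10 kb with the flanks included, then above the 0.766 of RGD receptor genes and the 0.229 of collagen receptor genes. The ratio of the highest to the lowest promoter peak was 4.48 by fragments and 15.5 by −log10 q. Where a peak had to cover the TSS, other integrin alpha genes with 1 went from 3 to 1 and integrin beta genes from 7 to 3. Of the alternative values for summaries, the 7 given here were classed as moved and 62 were not. Some of the 62 still changed. At a fold of at least 5, gene-body peaks went from 28 to 19. The gene-body density of laminin receptor genes then went from 0.295 to 0.177 per 10 kb. The lowest peaks had 10 fragments, so weaker accessibility was not detectable at this depth. No paired analysis was possible because there was no second library to pair with it.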

Other observations

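Several of the strongest peaks near the integrin alpha genes lay at starts of their neighbours. Fam171b, downstream of Itgav, had a fold of 16.1 with 100 fragments at its start, above the fold of every integrin alpha promoter. Mocs2, a molybdenum cofactor gene downstream of Itga2, had a fold of 11.7 with 46 fragments, and Pdk1, a kinase of pyruvate dehydrogenase downstream of Itga6, a fold of 11.6 with 78 fragments. Its relative Pdk2, downstream of Itga3, had a peak with a fold of 10.8 and 91 fragments. At Cd63, a tetraspanin gene upstream of Itga7, the highest peak had a fold of 9.85 with 112 fragments. Fem1b, downstream of Itga11, had a fold of 7.65 with 41 fragments.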
